A study of Homo sapiens with 36 samples.

Results

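Imprinted genes, which are expressed from 1 parental copy, were followed through the RNA-seq of 3 experiments in cisplatin-resistant testicular germ cell tumor (TGCT) cells. The members were chosen by name: H19, IGF2, CDKN1C, MEG3, DLK1, PEG3, PEG10, SNRPN, MEST, and NNAT. Of these 10 genes, 9 were measured in at least 1 experiment and 7 in all 3, with 8 of 16431 genes in NT2/D1-A4, 9 of 17035 in 2102EP-C1 given GSK-J4, and 8 of 16459 in the 2102EP-C1 knockdown experiment. IGF2 had no value in any experiment, MEG3 had none in NT2/D1-A4 cells, and NNAT had none in the knockdown experiment.

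NT2/D1-A4 and 2102EP-C1 are human cell lines, each a clone selected for stable cisplatin resistance from the embryonal carcinoma lines NT2/D1 and 2102EP, so each experiment describes 1 clone. NT2/D1-A4 cells and 2102EP-C1 cells were untreated or treated with 0.5 µM cisplatin for 6 h. Others were given GSK-J4 at 1 µM over 3 days, or pretreated with GSK-J4 and then given cisplatin (the combination). The untreated cells are the vehicle control of the study, labelled VC. GSK-J4 inhibits the demethylases KDM6A and KDM6B, which remove the polycomb mark H3K27me3. In the knockdown experiment, 2102EP-C1 cells carried lentiviral pLKO.1 without an insert or 1 hairpin against each demethylase (sh6A+6B). Both were without or with 0.5 µM cisplatin for 6 h. The libraries do not cover the spread between different hairpins. RNA was harvested a day after cisplatin, and there were 4 arms per experiment and 3 libraries per arm, numbered in their titles and called biological replicates by the study; p-values measure the spread between these libraries. Cisplatin resistance was shared by every arm, controls included, and every sh6A+6B or pLKO.1 library came from cells that had been transduced and selected.

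Imprints are set in the germline as DNA methylation on 1 parental copy of a control region and are maintained through the divisions of the embryo, so the paternal and the maternal copies of a gene are used differently. Many imprinted genes act on growth: maternally expressed genes such as CDKN1C and the long noncoding RNAs H19 and MEG3 often restrain it, while paternally expressed genes such as IGF2, DLK1, and PEG10 often promote it. Germ cells erase and reset imprints, and at some imprinted genes the silent copy also carries polycomb marks, so the state of these genes in germ cell tumors is of long-standing interest. The data here are total gene counts, which do not tell the 2 parental copies apart.

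RefSeq start-site windows, from 250 bases before to 50 bases after a start, were at hand for 4 of the 10 members (13 windows). For each gene the window with the most CpG dinucleotides is shown, since CpG sites are where the methylation of an imprint is carried; capitals mark each CpG. Methylation itself was not measured, and a start-site window need not hold the control region of an imprint. The windows are in GRCh38.p14 and read 5′ to 3′ along the gene.
H19, chr11:2001217-2001516, minus strand: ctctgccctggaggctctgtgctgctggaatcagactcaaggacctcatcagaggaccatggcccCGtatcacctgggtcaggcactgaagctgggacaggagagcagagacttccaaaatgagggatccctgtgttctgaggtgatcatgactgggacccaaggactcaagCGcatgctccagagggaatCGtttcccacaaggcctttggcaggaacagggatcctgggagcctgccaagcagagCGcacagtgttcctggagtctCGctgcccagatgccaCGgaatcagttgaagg
MEG3, chr14:100825858-100826157, plus strand: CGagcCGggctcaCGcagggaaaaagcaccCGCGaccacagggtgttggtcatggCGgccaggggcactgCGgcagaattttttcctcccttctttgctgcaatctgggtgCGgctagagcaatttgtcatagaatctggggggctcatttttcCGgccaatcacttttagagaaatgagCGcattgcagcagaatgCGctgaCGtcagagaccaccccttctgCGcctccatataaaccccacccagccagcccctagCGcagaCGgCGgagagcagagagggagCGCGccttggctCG
SNRPN, chr15:24954737-24955036, plus strand: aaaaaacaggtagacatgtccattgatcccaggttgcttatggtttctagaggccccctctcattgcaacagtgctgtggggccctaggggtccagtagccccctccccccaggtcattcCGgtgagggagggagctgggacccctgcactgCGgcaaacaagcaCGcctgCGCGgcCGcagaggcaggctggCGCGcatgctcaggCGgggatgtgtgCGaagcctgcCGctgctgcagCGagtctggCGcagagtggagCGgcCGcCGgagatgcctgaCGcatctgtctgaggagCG
MEST, chr7:130491835-130492134, plus strand: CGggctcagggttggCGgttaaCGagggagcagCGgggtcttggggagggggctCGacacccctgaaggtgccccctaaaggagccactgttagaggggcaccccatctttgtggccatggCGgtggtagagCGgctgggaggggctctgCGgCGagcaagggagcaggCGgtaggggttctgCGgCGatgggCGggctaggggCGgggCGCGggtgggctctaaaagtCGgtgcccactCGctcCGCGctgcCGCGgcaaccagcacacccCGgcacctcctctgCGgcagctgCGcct
H19 had 6 CpG in its window, MEG3 had 19, SNRPN had 18, and MEST had 25, beside a median of 14 over all 35116 windows. The MEG3, SNRPN, and MEST windows were picked as the richest in CpG of each gene, while the median covers all windows. Other SNRPN windows held 7, 2, and 11 CpG, and other MEST windows held 13, 22, 16, and 22. TGCCGC, the letters that the imprint-maintaining zinc finger protein ZFP57 recognizes when methylated, was searched on both strands and occurred 3 times in the MEST window, 2 times in the SNRPN window, and 1 time in the MEG3 window; 16.7% of all windows hold it. The MEG3 window also held TGACGTCA, the palindromic cAMP response element, which is present in 1.85% of all windows. AAGATGGC, a core of the YY1 site present in 2.89% of all windows, was in none of the 4 shown and occurred 1 time in another SNRPN window, chr15:24956050-24956349. These motifs were chosen with the sequences in view, and a match is a description of letters. TGCCGC and TGACGTCA each hold a CpG, so their shares over all windows are not a like reference for windows picked by CpG.

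The 10 genes lie on 6 chromosomes (GENCODE, GRCh38; NCBI gene numbers in brackets). H19 (283120), IGF2 (3481), and CDKN1C (1028) lie on the minus strand at chr11:1995176-2001266, chr11:2129117-2149566, and chr11:2883218-2885775. DLK1 (8788) and MEG3 (55384) lie on the plus strand at chr14:100726892-100738224 and chr14:100826108-100861026. PEG10 (23089) and MEST (4232) lie on the plus strand at chr7:94656325-94669695 and chr7:130486175-130506465, SNRPN (6638) at chr15:24823637-24978723 and NNAT (4826) at chr20:37521250-37523690 on the plus strand, and PEG3 (5178) at chr19:56810082-56840726 on the minus strand. H19 and MEG3 are annotated as long noncoding RNAs and the others as protein-coding.

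Reads recovered from the deposited values numbered 26842718 to 49521740 per library in NT2/D1-A4, 30250275 to 53645086 in 2102EP-C1 under GSK-J4, and 79382033 to 100872653 in the knockdown experiment. Of these reads, 0.0823% to 0.136% fell on the members. Of 13 embryonal carcinoma markers 12 were measured in each experiment, with a summed level between 7722 and 9898 CPM (read counts scaled to a common library size) in every library. Summed embryonal carcinoma markers were lower with GSK-J4, from 9072 to 9246 CPM in untreated NT2/D1-A4 libraries to 8387 to 8583 with GSK-J4 and 7722 to 8309 with the combination, and from 9697 to 9898 CPM in untreated 2102EP-C1 libraries to 8935 to 9177 and 8896 to 9044. Summed trophoblast markers (4 or 5 of 9 measured) had medians of 19.4, 24.4, and 28.1 CPM in the same arms of NT2/D1-A4 and lay at 9.19 to 10.7, 15.1 to 16.4, and 16.4 to 23.4 CPM in 2102EP-C1. Yolk sac endoderm markers (4 and 3 of 10 measured, AFP among them at 0.672 CPM or less in every library of both lines) had medians of 3.19, 5.63, and 5.94 CPM and of 1.11, 2.92, and 3.14 CPM. In each of these lists the sums with GSK-J4 did not overlap with the untreated ones. The rise in trophoblast markers in NT2/D1-A4 was not shared by every marker. Over all libraries there ERVW-1 spanned 5.39 to 9.93 CPM (untreated mean 9.44). HAND1, TFAP2A, and GATA3 reached 8.17, 7.90, and 6.75 CPM (untreated means 3.72, 3.67, and 2.90). ERVW-1 spanned 0.519 to 1.59 CPM under GSK-J4 and its controls in 2102EP-C1 (untreated mean 1.31). CGA, CGB3, GCM1, and PSG1 had no value in either line. With GSK-J4 alone, mesoderm markers fell without overlap in NT2/D1-A4, from 32.5 to 33.0 CPM to 29.9 to 30.7. They rose without overlap in 2102EP-C1, from 34.2 to 36.1 CPM to 40.0 to 43.6. Neural markers overlapped in both lines. Somatic testis or blood markers overlapped in NT2/D1-A4 and fell without overlap in 2102EP-C1. The lower embryonal carcinoma sum was not shared by every marker. Over all NT2/D1-A4 libraries POU5F1 spanned 487 to 568 CPM (untreated mean 502) and LIN28A spanned 2007 to 2753 (untreated mean 2709). L1TD1 spanned 1078 to 1621 (untreated mean 1596), PODXL 1749 to 2065 (1767), and ZFP42 237 to 293 (243). In the 2102EP-C1 GSK-J4 experiment L1TD1 spanned 1208 to 1683 (untreated mean 1623), POU5F1 664 to 747 (678), and PODXL 1308 to 1626 (1380). ZFP42 was at 0.580 CPM or less there. The part of these shifts in the member changes under GSK-J4 was not tested. In the knockdown experiment without cisplatin the embryonal carcinoma, trophoblast, and yolk sac sums overlapped between pLKO.1 and sh6A+6B. Summed levels of marker lists of other lineages reached at most 55.0 CPM, for neural genes in NT2/D1-A4 cells. In the knockdown experiment, KDM6A was at 143, 144, and 142 CPM in the pLKO.1 libraries and at 70.7, 68.1, and 73.6 CPM in the sh6A+6B libraries. KDM6B was at 24.4, 25.2, and 24.7 CPM with pLKO.1 and at 11.4, 12.1, and 13.4 CPM with sh6A+6B, so both targets were reduced in every knockdown library. In bulk RNA, fewer cells that express a gene and less RNA per cell cannot be told apart.

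**Figure D1:**
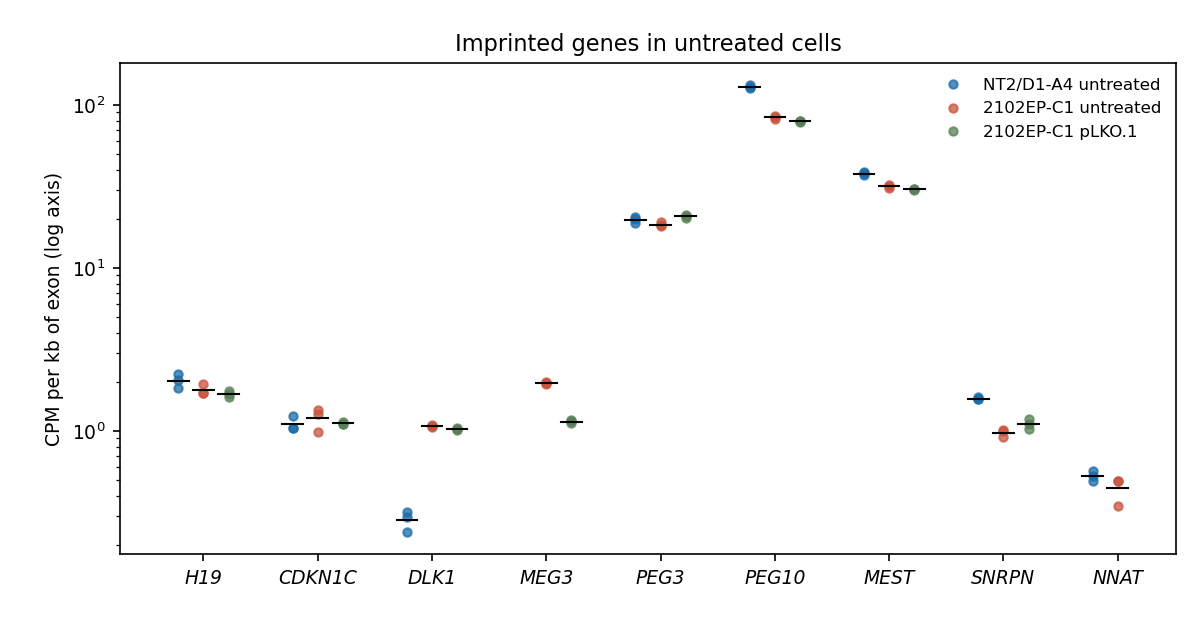
Level of each imprinted gene in untreated cells as CPM per kb of exon (log axis), with 1 point per library (3 per group) and a line at the mean. PEG10, MEST, and PEG3 lie above the other genes in every library of every group, and no library of another gene exceeds 2.24 CPM per kb.

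Levels in untreated cells were dominated by 3 paternally expressed genes. Per kb of exon, PEG10, a retrotransposon-derived gene needed for placenta formation, was at 129 ± 2.61 CPM per kb (SD, n = 3) in NT2/D1-A4, 83.8 ± 1.75 in 2102EP-C1, and 79.1 ± 0.15 in pLKO.1 cells. MEST, which encodes an enzyme of the alpha/beta hydrolase family, followed at 37.9 ± 0.61, 31.7 ± 0.81, and 30.3 ± 0.12 CPM per kb. PEG3, a zinc finger transcription factor gene, was at 19.7 ± 0.86, 18.5 ± 0.53, and 20.7 ± 0.40 CPM per kb. The remaining members were between 0.285 and 2.04 CPM per kb. In NT2/D1-A4 cells their order was H19, SNRPN, CDKN1C, NNAT, and DLK1, and the ranges of neighbours in that order did not overlap. In 2102EP-C1 cells the order was MEG3, H19, CDKN1C, DLK1, SNRPN, and NNAT. The ranges of MEG3 and H19 overlapped, as did those of CDKN1C and DLK1. The divisor is the union of all annotated exons of a gene, 23224 bases for MEG3 and 3462 for H19. Before this division MEG3 was at 45.6 CPM and H19 at 6.18 CPM in these cells, so the place of MEG3 depends on that length. In pLKO.1 cells the ranges of MEG3, CDKN1C, SNRPN, and DLK1 each overlapped with the next in order.

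The lines were set side by side without a test, since their tables were normalized separately. Among the members measured in both lines, DLK1, a transmembrane protein of the Notch ligand family that restrains differentiation, separated the lines most. MEG3, at 45.6 CPM in untreated 2102EP-C1 cells, had no value in NT2/D1-A4 cells and is outside this ranking. DLK1 was at 0.43, 0.71, and 0.82 log2 CPM in untreated NT2/D1-A4 cells (42 to 66 reads) and at 2.52, 2.49, and 2.53 log2 CPM in untreated 2102EP-C1 cells (196 to 304 reads), a level 3.76-fold higher in 2102EP-C1 in CPM. SNRPN, PEG10, and MEST were lower in 2102EP-C1, by 0.68, 0.62, and 0.26 on the log2 scale, with no overlap between the libraries of the lines. NNAT differed by -0.25 log2, less than the combined SD of 0.27, with libraries that only just did not overlap (lowest -0.43 and highest -0.44 log2 CPM). H19, CDKN1C, and PEG3 overlapped between the lines. MEG3 was at 5.51 ± 0.03 log2 CPM in untreated 2102EP-C1 cells and at 4.73 ± 0.03 in pLKO.1 cells (SD, n = 3), the largest difference between these control groups of the 8 members measured in both. Those groups differed in vector, experiment, and depth, whose parts in it cannot be told apart.

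Gene changes were tested with limma-trend on the log2 CPM values of all genes, with Benjamini-Hochberg (BH) adjustment over all genes of an experiment, and a change was called at an adjusted p under 0.05 together with a fold of more than 1.3 in either direction. The values carry a prior count of 3 reads, so fold changes of genes with few reads, NNAT above all, are understated.

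Cisplatin alone changed none of the measured members in any experiment. None of 8 passed in NT2/D1-A4, where 2.45% of all genes changed (2.05% up and 0.396% down). None of 9 passed in 2102EP-C1, where 1.07% changed (0.881% up and 0.188% down), and none of 8 in pLKO.1 cells, where 3.0% changed (2.53% up and 0.462% down), while an unadjusted p under 0.05 was found for 2, 1, and 5 members. PEG10 came closest. In pLKO.1 cells PEG10 was at 9.05, 9.04, and 9.05 log2 CPM before and at 9.27, 9.27, and 9.26 after cisplatin, a difference of 0.22 on the log2 scale (SE 0.02, limma adjusted p = 7.86e-10) that fell short of the fold limit. The same comparison gave 0.17 in untransduced 2102EP-C1 cells (adjusted p = 0.000935) and 0.12 in NT2/D1-A4 (adjusted p = 0.0722), with no overlap between the groups in any of the 3 experiments. In pLKO.1 cells MEG3 and PEG3 also differed, by 0.19 and 0.18 log2, and MEST by -0.12, each under the fold limit with adjusted p values of 8.13e-05, 1.67e-05, and 2.58e-05.

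**Figure D2:**
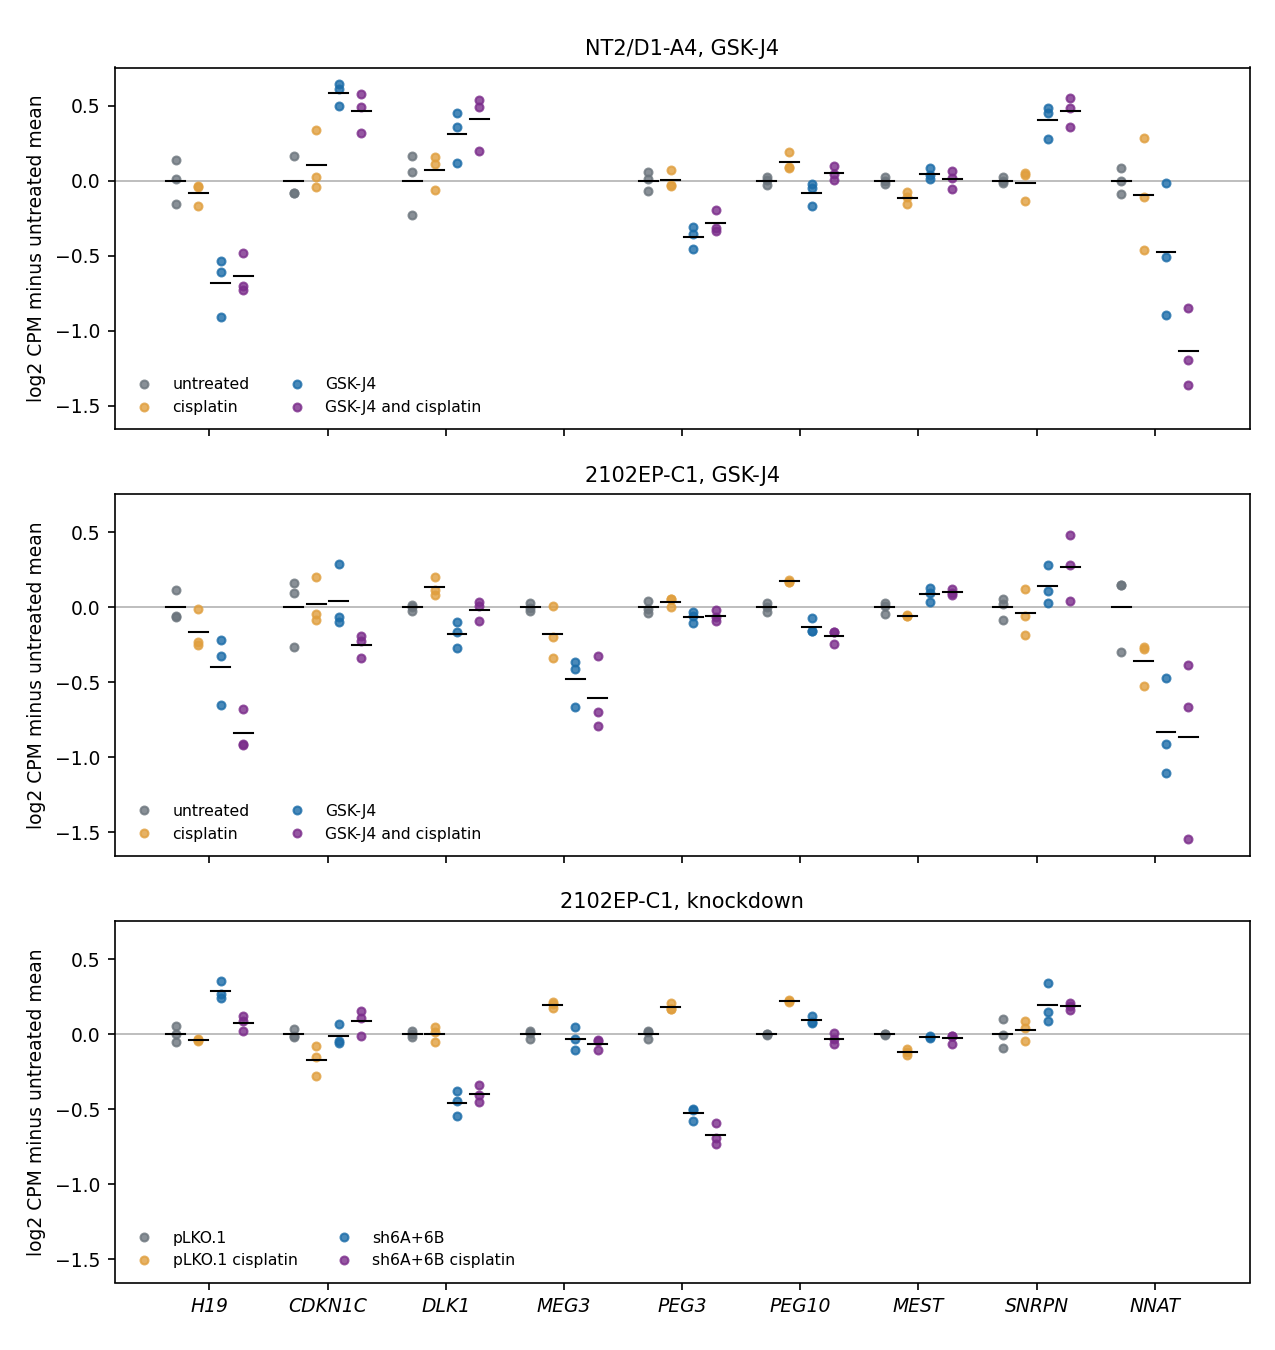
Each library's log2 CPM minus the mean of the 3 control libraries, for every imprinted gene and arm of the 3 experiments, with 1 point per library and a line at the mean of an arm. With GSK-J4, H19 lies lower in both lines and SNRPN and CDKN1C lie higher in NT2/D1-A4 cells, while with sh6A+6B the genes that lie lower are DLK1 and PEG3.

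Pretreatment of NT2/D1-A4 cells by GSK-J4 lowered H19 and raised CDKN1C and SNRPN. Without cisplatin 3 of 8 members changed, 2 up and 1 down, where 20.3% of all genes changed (13.8% up and 6.48% down); the median difference was -0.02 log2 over the members and 0.01 over all genes. H19, a maternally expressed long noncoding RNA that hosts miR-675, was at 2.97, 2.85, and 2.68 log2 CPM in untreated cells and at 2.30, 2.22, and 1.92 with GSK-J4. All 3 treated libraries lay below all untreated ones, and the difference was -0.68 log2 (SE 0.11, limma adjusted p = 3.78e-05).

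CDKN1C, which encodes the cyclin-dependent kinase inhibitor p57, lies in the neighbouring imprinted domain of chromosome 11 and is maternally expressed. It was at 1.41, 1.66, and 1.42 log2 CPM in untreated NT2/D1-A4 cells and at 2.14, 2.00, and 2.11 with GSK-J4, with no overlap (0.58 log2, SE 0.12, limma adjusted p = 0.00055). SNRPN, a paternally expressed gene for a small nuclear ribonucleoprotein of the Prader-Willi region, was at 2.45, 2.43, and 2.47 log2 CPM untreated and at 2.90, 2.94, and 2.73 with GSK-J4. These groups did not overlap either (0.40 log2, SE 0.09, limma adjusted p = 0.000768), although SNRPN no longer passed the fold limit without GSK-J4 replicate 2 (0.36 log2).

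SNRPN shared 23.9% of its exon bases with SNURF and 4.14% with SNHG14 on the same strand in GENCODE. How the count treated reads that overlap more than 1 gene is not given in the sources used here, so the SNRPN level, 5.39 CPM in untreated NT2/D1-A4 cells beside 330 CPM for SNHG14, is uncertain. PEG3 shared 12.9% of its exon bases with ZIM2 on the same strand, and 39.1% with an antisense transcript. The other members measured shared at most 12.6% with any other gene.

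PEG3 in NT2/D1-A4 cells lay just inside the fold limit and was not counted. It was at 7.64, 7.60, and 7.52 log2 CPM untreated and at 7.13, 7.28, and 7.23 with GSK-J4, without overlap, a difference of -0.37 log2 (SE 0.05, limma adjusted p = 3.4e-06). Leaving out untreated replicate 3, GSK-J4 replicate 2, or GSK-J4 replicate 3 brought it past the limit, the largest of these values being -0.41 log2. DLK1 (0.31 log2, adjusted p = 0.103) and NNAT (-0.47, adjusted p = 0.149) overlapped between the groups. PEG10 and MEST differed by -0.08 and 0.04 log2 with overlap.

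With cisplatin in both arms, GSK-J4 changed 3 of 8 members in NT2/D1-A4 cells, 1 up and 2 down, where 20.7% of all genes changed (12.8% up and 7.84% down). This comparison shares no library with the comparison made without cisplatin, but both use 1 estimate of the spread from all libraries of the experiment. H19 was at 2.80, 2.79, and 2.66 log2 CPM with cisplatin and at 2.13, 2.35, and 2.10 with the combination (-0.55 log2, SE 0.11, limma adjusted p = 0.000352). SNRPN was at 2.31, 2.49, and 2.50 and then at 2.81, 2.93, and 3.01 log2 CPM (0.48 log2, SE 0.09, limma adjusted p = 0.000157). In neither gene did the groups overlap.

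NNAT, a paternally expressed gene for a small membrane proteolipid of developing brain, was the other gene to fall. It was at -0.45, -0.80, and -0.06 log2 CPM with cisplatin (17 to 32 reads) and at -1.20, -1.54, and -1.71 with the combination (6 to 13 reads), a difference of -1.04 log2 (SE 0.26, limma adjusted p = 0.00318). CDKN1C was 0.35 log2 higher (limma adjusted p = 0.0214), under the fold limit, and passed it with scaling to library size alone or without cisplatin replicate 2 or combination replicate 1. Against untreated cells, the combination changed 5 of 8 members where 25.4% of all genes changed (15.9% up and 9.56% down). H19 (-0.64 log2) and NNAT (-1.14) were lower and CDKN1C (0.46), SNRPN (0.46), and DLK1 (0.41, limma adjusted p = 0.0307) were higher. The DLK1 call was lost with only the libraries compared in the fit and without untreated replicate 1 or combination replicate 1 or 2. Cisplatin on top of GSK-J4 changed none of the 8 (0.377% of all genes changed, 0.158% up and 0.219% down), with an unadjusted p under 0.05 for 2.

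In 2102EP-C1 cells, GSK-J4 lowered H19, MEG3, and NNAT and raised none of the members. Without cisplatin 3 of 9 members changed, where 10.9% of all genes changed (7.79% up and 3.12% down). The median difference was -0.13 log2 over the members and -0.0017 over all genes. MEG3, the maternally expressed long noncoding RNA of the DLK1 domain on chromosome 14, was at 5.49, 5.51, and 5.54 log2 CPM in untreated cells and at 4.85, 5.10, and 5.15 with GSK-J4. The groups did not overlap, and the difference was -0.48 log2 (SE 0.09, limma adjusted p = 0.000102).

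H19 was at 2.58, 2.76, and 2.59 log2 CPM in untreated 2102EP-C1 cells and at 2.43, 2.32, and 1.99 with GSK-J4. The groups were separate but close (-0.40 log2, SE 0.11, limma adjusted p = 0.00786), and the call was lost without untreated replicate 2 (-0.34 log2) or without GSK-J4 replicate 3 (-0.27 log2). NNAT was at -0.89, -0.44, and -0.44 log2 CPM untreated (16 to 35 reads) and at -1.70, -1.50, and -1.06 with GSK-J4 (7 to 14 reads), without overlap (-0.83 log2, SE 0.30, limma adjusted p = 0.0312). Its call was lost when untreated replicate 2 or 3 or GSK-J4 replicate 1 or 2 was left out. Without untreated replicate 2 the count of changed members was 1 of 9.

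DLK1, on the same chromosome 14 domain as MEG3 but paternally expressed, was at 2.52, 2.49, and 2.53 log2 CPM untreated and at 2.35, 2.41, and 2.24 with GSK-J4. The ranges did not overlap, but the difference of -0.18 log2 did not pass the test (limma adjusted p = 0.118). CDKN1C and SNRPN, which rose in NT2/D1-A4 cells, differed by 0.04 log2 (95% interval -0.24 to 0.33) and 0.14 log2 (-0.11 to 0.40) in 2102EP-C1 cells, with overlap. PEG3, at -0.37 log2 in NT2/D1-A4 cells, was at -0.07 log2 here (95% interval -0.13 to 0.0014). Whether these effects differ between the lines was not tested, since the experiments were normalized and fitted apart.

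With cisplatin in both arms of 2102EP-C1, 2 of 9 members changed and both were lower, where 19.3% of all genes changed (10.5% up and 8.82% down). H19 was at 2.40, 2.41, and 2.63 log2 CPM with cisplatin and at 1.73, 1.97, and 1.73 with the combination, a difference of -0.67 log2 (SE 0.11, limma adjusted p = 2.03e-05). MEG3 was at 5.18, 5.32, and 5.52 with cisplatin and at 4.72, 4.81, and 5.19 with the combination (-0.43 log2, SE 0.09, limma adjusted p = 0.000198). The MEG3 groups overlapped, by combination replicate 3 lying above cisplatin replicate 1, and the call was lost without cisplatin replicate 3 (which left 1 changed member) or without combination replicate 1.

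H19 was also the 1 member of 9 that changed when cisplatin followed GSK-J4 in 2102EP-C1 cells, where 2.22% of all genes changed (0.916% up and 1.31% down). Its level with GSK-J4 and with the combination, given above, did not overlap, and the difference was -0.44 log2 (SE 0.11, limma adjusted p = 0.00922). Without GSK-J4 replicate 1 the call was lost and the count was 0. Cisplatin without GSK-J4 gave -0.16 log2 for H19 (adjusted p = 0.496), and the difference between these effects of cisplatin was -0.28 log2 with an adjusted p of 0.385. Against untreated cells the combination lowered H19 (-0.84 log2, limma adjusted p = 7.33e-07), MEG3 (-0.60, 1.78e-06), and NNAT (-0.86, 0.0164), 3 of 9 members where 22.6% of all genes changed (12.8% up and 9.77% down). In these libraries PEG10 passed the adjusted p with a smaller difference, -0.13 log2 without cisplatin (adjusted p = 0.00179) and -0.36 log2 with cisplatin (adjusted p = 3.69e-10).

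**Figure D3:**
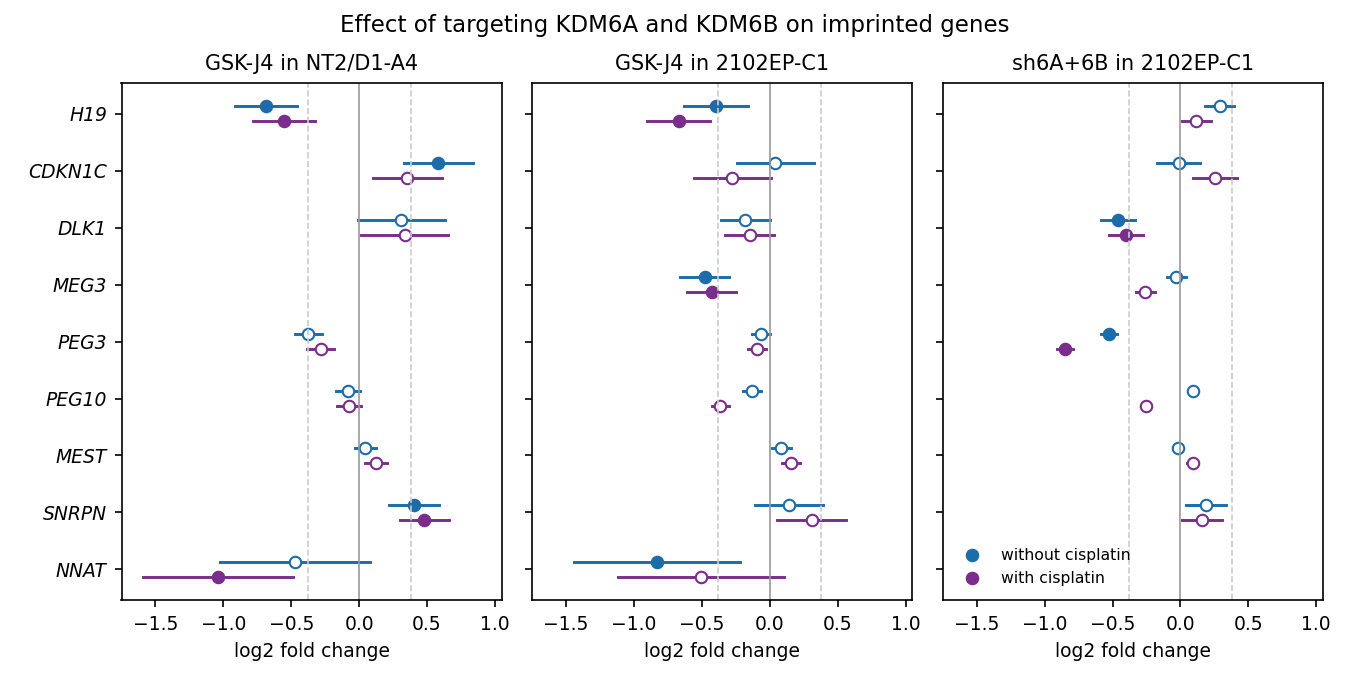
Log2 fold change of each imprinted gene with GSK-J4 or sh6A+6B, without cisplatin (blue) and with cisplatin in both arms (purple), with 95% confidence intervals from limma. Filled points passed the fold limit of 1.3 (dashed lines) and the adjusted p, and PEG3 in the knockdown lies lowest of the genes there, at -0.53 and -0.85.

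Hairpins against KDM6A and KDM6B lowered PEG3 and DLK1, and no other member passed the fold limit. Without cisplatin 2 of 8 members changed, both down, where 12.1% of all genes changed (6.34% up and 5.74% down); the median difference was -0.02 log2 over the members and -0.0047 over all genes. PEG3 was at 7.63, 7.68, and 7.67 log2 CPM with pLKO.1 and at 7.16, 7.08, and 7.16 with sh6A+6B. The groups were far apart relative to the spread of replicates (-0.53 log2, SE 0.03, limma adjusted p = 1.04e-13). DLK1 was at 2.46, 2.42, and 2.45 log2 CPM with pLKO.1 and at 1.90, 2.00, and 2.06 with sh6A+6B, again without overlap (-0.46 log2, SE 0.06, limma adjusted p = 7.97e-07).

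H19 was higher in the knockdown, where it had been lower with GSK-J4. It was at 2.60, 2.50, and 2.55 log2 CPM with pLKO.1 and at 2.91, 2.79, and 2.82 with sh6A+6B, a difference of 0.29 log2 (SE 0.05, limma adjusted p = 6.39e-05) that did not reach the fold limit. MEG3 was at 4.75, 4.74, and 4.70 with pLKO.1 and at 4.63, 4.78, and 4.70 with sh6A+6B, and its groups overlapped (-0.03 log2, 95% interval -0.10 to 0.04). The difference between the inhibitor and the knockdown in the same line was not tested. PEG10 (0.09 log2, adjusted p = 8.79e-05) and SNRPN (0.19, adjusted p = 0.0272) lay slightly higher and CDKN1C (-0.01) and MEST (-0.02) lay near the control.

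With cisplatin in both arms of the knockdown experiment the same 2 of 8 members were lower, where 15.2% of all genes changed (6.4% up and 8.77% down). PEG3 was at 7.86, 7.83, and 7.82 log2 CPM in pLKO.1 cells with cisplatin and at 6.96, 6.93, and 7.07 in sh6A+6B cells with cisplatin, a difference of -0.85 log2 (SE 0.03, limma adjusted p = 1.23e-17). DLK1 was at 2.39, 2.46, and 2.49 and then at 2.04, 1.99, and 2.10 (-0.40 log2, SE 0.06, limma adjusted p = 3.07e-06), and its call was lost without sh6A+6B cisplatin replicate 2 (-0.38 log2), which left 1 changed member. Against untreated pLKO.1 cells, sh6A+6B with cisplatin also had 2 of 8 members changed (16.0% of all genes, 8.51% up and 7.5% down), PEG3 at -0.67 log2 and DLK1 at -0.40 log2, and again 1 without sh6A+6B cisplatin replicate 2. Cisplatin changed none of the 8 within sh6A+6B cells (3.52% of all genes, 2.48% up and 1.04% down), with an unadjusted p under 0.05 for 3.

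The effect of cisplatin on some members depended on the knockdown by less than the fold limit. No member was counted as changed in the interaction in the knockdown experiment (3.77% of all genes), in NT2/D1-A4 cells (0.0426%), or in 2102EP-C1 under GSK-J4 (0.857%), with an unadjusted p under 0.05 for 6, 0, and 1 members. PEG10 differed by 0.22 log2 with cisplatin in pLKO.1 cells and by -0.12 in sh6A+6B cells, a difference between them of -0.34 log2 (SE 0.02, limma adjusted p = 1.13e-10). In 2102EP-C1 under GSK-J4 the same difference was -0.23 log2 (SE 0.04, limma adjusted p = 0.00508), and in NT2/D1-A4 cells it was 0.01 log2 (adjusted p = 0.993). PEG3 moved from 0.18 to -0.14 log2 with cisplatin in the knockdown experiment (difference -0.32 log2, SE 0.04, limma adjusted p = 3.96e-07), and MEG3 from 0.19 to -0.03 (difference -0.23 log2, SE 0.05, limma adjusted p = 0.000561). These 3 genes lay higher with cisplatin in the pLKO.1 libraries and lower or level in the sh6A+6B libraries. CDKN1C and MEST had interactions of the other sign. CDKN1C differed by -0.17 log2 with cisplatin in pLKO.1 cells and by 0.10 in sh6A+6B cells (difference 0.27 log2, SE 0.11, limma adjusted p = 0.0611), and MEST by -0.12 and -0.01 (difference 0.11 log2, SE 0.03, limma adjusted p = 0.00214). H19 differed by -0.04 and -0.21 log2 (difference -0.17, SE 0.07, limma adjusted p = 0.0775).

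MEST was the member with the least movement in the 3 experiments. Its 36 libraries lay between 7.04 and 7.58 log2 CPM, and its differences in the 18 comparisons lay between -0.12 and 0.16 log2. PEG10, the most abundant member, had differences between -0.36 and 0.22 log2.

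**Figure D4:**
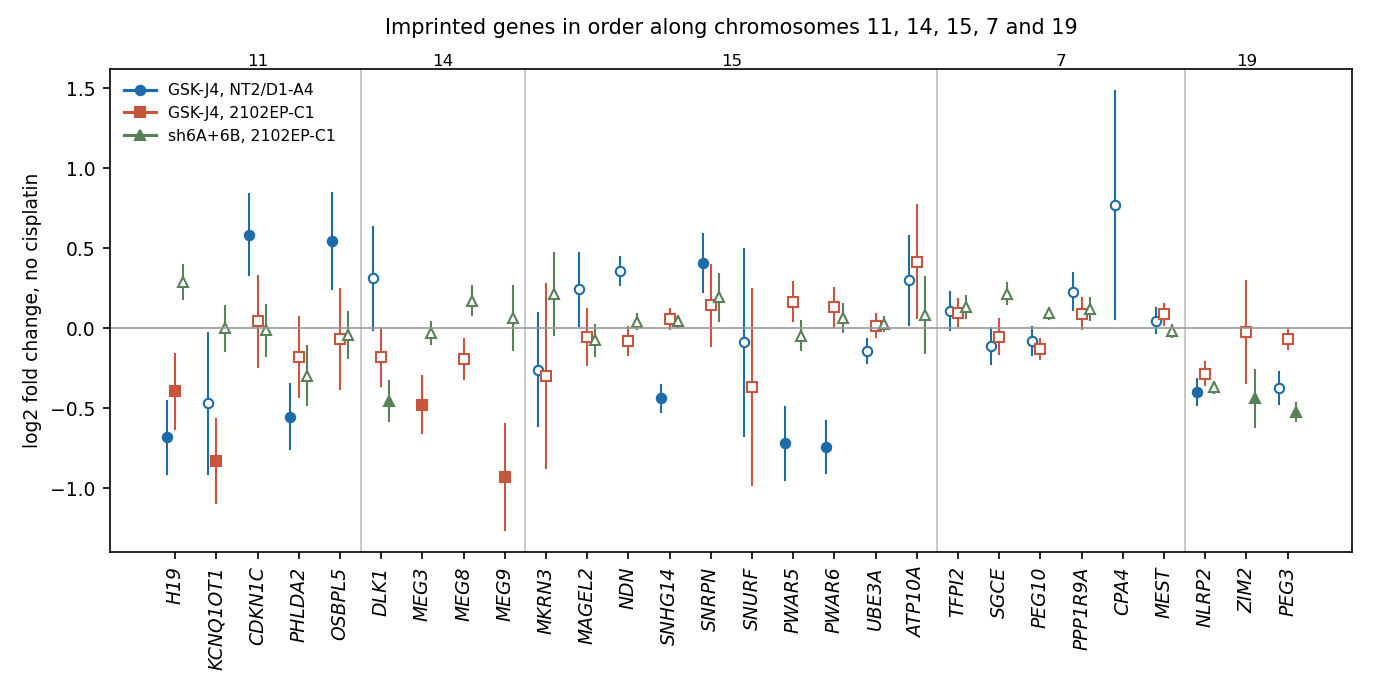
Log2 fold change without cisplatin for imprinted genes on chromosomes 11, 14, 15, 7, and 19 (order along each chromosome, not to scale), with 95% confidence intervals; filled symbols passed the fold limit and the adjusted p. On chromosome 15, PWAR5, PWAR6, and SNHG14 lie below 0 in NT2/D1-A4 cells while SNRPN lies above it, and on chromosome 14 MEG3 and MEG9 lie below 0 in 2102EP-C1 under GSK-J4.

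Other imprinted genes from 2 wider lists, 30 paternally and 20 maternally expressed, moved in both directions. Of the paternally expressed genes, GSK-J4 raised 2 and lowered 3 of 16 in NT2/D1-A4 and lowered 1 of 16 in 2102EP-C1 cells, while sh6A+6B raised 1 and lowered 1 of 15. With cisplatin in both arms these counts were 1 up and 4 down of 16, 4 down of 16, and 2 up and 5 down of 15. Of the maternally expressed genes without cisplatin, 2 rose and 2 fell of 14 in NT2/D1-A4, and 2 rose and 1 fell of 15 in 2102EP-C1 cells. None of 15 changed in the knockdown without cisplatin, where an unadjusted limma p under 0.05 was found for 8. The maternal counts with cisplatin in both arms were 2 up and 2 down of 14, 2 up and 3 down of 15, and 1 down of 15. The shares of all genes changed in these comparisons are those given above.

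In the Prader-Willi region of chromosome 15, noncoding transcripts of the SNRPN locus fell under GSK-J4 in NT2/D1-A4, where SNRPN itself was higher. SNHG14, the host of the snoRNA clusters of that region, was at 8.37, 8.35, and 8.37 log2 CPM untreated and at 7.98, 7.90, and 7.90 with GSK-J4 (-0.44 log2, limma adjusted p = 5.46e-08). PWAR6 fell by 0.74 and PWAR5 by 0.72 on the log2 scale (limma adjusted p of 2.22e-07 and 2.32e-05). In 2102EP-C1 under GSK-J4 the 3 transcripts differed by 0.06, 0.13, and 0.17 log2, none of them past the fold limit. With sh6A+6B, PWAR6 and PWAR5 differed by 0.06 and -0.05 log2 without cisplatin, neither past the test. With cisplatin in both arms they fell by 0.71 and 0.74 log2, beside a pLKO.1 reference in which cisplatin had raised them by 0.54 and 0.60 log2.

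On chromosome 11, KCNQ1OT1, the paternally expressed antisense RNA that silences CDKN1C and its neighbours in cis, fell with GSK-J4 in 2102EP-C1 cells. KCNQ1OT1 was at 2.04, 2.23, and 2.12 log2 CPM untreated and at 1.42, 1.42, and 1.07 with GSK-J4 (-0.83 log2, limma adjusted p = 1.12e-05), and at -0.98 log2 with cisplatin in both arms. CDKN1C in the same libraries was at 0.04 and -0.28 log2, neither of which passed the test. In NT2/D1-A4 cells KCNQ1OT1 was at -0.47 log2 without cisplatin (adjusted p = 0.0730) and fell by 0.79 log2 with it. PHLDA2, a maternally expressed brake on placental growth beside CDKN1C, fell in NT2/D1-A4 cells by 0.55 log2, while CDKN1C rose by 0.58.

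On chromosome 14, MEG9 fell beside MEG3 in 2102EP-C1 cells given GSK-J4, by 0.93 log2 without cisplatin and by 0.66 with it (limma adjusted p of 5.43e-05 and 0.00135). In the knockdown MEG9 was at 0.06 log2. On chromosome 19, ZIM2, which shares its first exons with PEG3, fell by 0.44 log2 with sh6A+6B (limma adjusted p = 0.000152), and PEG3 fell by 0.53. The ZIM2 call was lost without sh6A+6B replicate 2.

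Elsewhere, PLAGL1, a paternally expressed zinc finger regulator of the cell cycle, rose by 0.73 log2 under GSK-J4 in NT2/D1-A4 and by 1.58 log2 with sh6A+6B, from 2.75, 2.80, and 2.88 to 4.47, 4.41, and 4.29 log2 CPM (limma adjusted p = 5.3e-17). With GSK-J4 in 2102EP-C1, the line of the knockdown, PLAGL1 differed by 0.01 log2 (adjusted p = 0.935). GRB10, a growth factor receptor adaptor, rose with GSK-J4 by 0.57 log2 in NT2/D1-A4 and by 0.73 log2 in 2102EP-C1 cells, and was at 0.10 log2 in the knockdown. CRYBG1 rose by 0.54 log2 in NT2/D1-A4 cells, where NLRP2, a maternally supplied gene of early embryos, fell by 0.40 log2. The NLRP2 call was lost with scaling to library size alone.

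Of 19 genes that place or maintain methylation imprints, 17 or 18 were measured, and those that changed without cisplatin were lower. GSK-J4 lowered 4 of 17 in NT2/D1-A4 and 2 of 18 in 2102EP-C1 cells, and sh6A+6B lowered 3 of 18, where 20.3%, 10.9%, and 12.1% of all genes changed in either direction and 6.48%, 3.12%, and 5.74% changed downward. With cisplatin in both arms 4 of 17 were lower, then 3 of 18 lower and 1 higher, then 6 of 18 lower, where 20.7%, 19.3%, and 15.2% of all genes changed. Without cisplatin the differences had medians of -0.24, -0.13, and -0.13 log2 over the list beside 0.01, -0.0017, and -0.0047 over all genes. UHRF1, which brings the maintenance methyltransferase to newly copied DNA, fell by 0.86 log2 in NT2/D1-A4, by 0.48 in 2102EP-C1 under GSK-J4, and by 0.43 in the knockdown. DNMT3B, a de novo methyltransferase abundant in embryonal carcinoma, was at 10.77, 10.74, and 10.75 log2 CPM in untreated NT2/D1-A4 cells and at 9.99, 9.99, and 9.92 with GSK-J4 (-0.79 log2, limma adjusted p = 7.43e-11). It fell by 0.43 log2 in 2102EP-C1 under GSK-J4, and was at -0.35 log2 in the knockdown, under the fold limit. DNMT3L, the partner of the de novo enzymes in germ cells, fell by 0.96 log2 in NT2/D1-A4 cells and by 0.57 log2 in the knockdown, and TET1, an enzyme that oxidizes methylated cytosine, fell by 0.51 log2 in NT2/D1-A4 cells. KDM6B was higher with GSK-J4, by 0.88 log2 in NT2/D1-A4 and by 0.81 log2 in 2102EP-C1 cells.

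For members that averaged 1 CPM or more and changed in an experiment, the genes with the most similar levels over its 12 libraries were found by Pearson's r as a description. PEG3 in the knockdown experiment was most like CBX5 (r = 0.997) and GREB1 (r = 0.996), and DLK1 was most like SYT13 (r = 0.989) and GPAT3 (r = 0.988) among 14122 genes. H19 was most like RAC3 (r = 0.977) and ZNF480 (r = 0.972) in NT2/D1-A4 cells and like CDCA4 (r = 0.986) and PREB (r = 0.979) in 2102EP-C1 under GSK-J4. SNRPN in NT2/D1-A4 cells was most like GPX1 (r = 0.978) and TPM1 (r = 0.974). CDKN1C, DLK1, and MEG3 had closest genes at r = 0.955 and 0.943 in NT2/D1-A4 and 0.969 in 2102EP-C1. The libraries share their arms, so such values follow from any pair of genes that move with the same treatment.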

How the data were processed

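RNA-seq of 36 libraries (3 experiments, 4 arms, 3 libraries per arm) was used. Libraries were stranded mRNA. As stated in the methods and the submitters' processing notes, reads were trimmed with Trimmomatic, aligned to GRCh38.p14 with STAR, counted with featureCounts, filtered at 0.5 CPM in at least 2 samples, TMM-normalized, and tested with limma; versions and the strand and overlap settings of the count are not given in the sources used here. The values deposited by the authors are log2 CPM, 1 column per library, keyed by NCBI gene number. Tested on the files, they were made with TMM-scaled library sizes and a prior count of 3, since undoing both gave reads less than 0.05 away from an integer in 100% of values under 50 reads. Of the genes listed, 15964 of 16431, 16492 of 17035, and 16273 of 16459 were over 0.5 CPM in at least 2 libraries. Recovered reads gave depth, CPM, and CPM per kb of GENCODE exon; 16414, 17020, and 16443 genes were matched to symbols.

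Each table was fitted with limma-trend (limma 3.58.1, R 4.3.3) over its 12 libraries with a mean per arm and no block. Contrasts, two-sided, were cisplatin, GSK-J4 or knockdown without and with cisplatin, cisplatin after it, the combination, and the interaction, with BH adjustment over all genes of a table. The tables were normalized separately, so the lines were compared without a test. Alternatives were voom on recovered reads, a filter of log2 CPM over 1 in every library, only the libraries compared, the replicate number as a block, library size scaling, a prior count of 0.5, and leaving out each library. The fit was also run on simulated data, with changes past the fold limit planted in genes with more reads than NNAT. That run does not cover genes with few reads or changes near the limit.

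The members and gene lists were chosen with earlier results of these data known. All members were described; from the wider lists (30 paternally and 20 maternally expressed genes, 19 for imprint maintenance) genes were named that had a mean of at least 1 CPM and a change with GSK-J4 or knockdown in at least 2 experiments, or both without and with cisplatin in 1, at most 8 per list. Further genes are named where a value of theirs bears on a member. Depth limits low genes: NNAT rested on 6 to 35 reads per library. Python 3.11.15, numpy 2.4.6, pandas 2.3.3, and matplotlib 3.10.9 were used.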

Additional observations from a re-analysis of the deposited data

Results flagged for a closer look

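None of the members had an interaction past both thresholds, but 6 genes of the wider imprinted lists did (limma interaction term, BH adjustment over all genes). The effect of cisplatin on each differed between cells with and without the targeting of KDM6A and KDM6B. In NT2/D1-A4 they were 1 of 16 paternally and 0 of 14 maternally expressed genes, where 0.0426% of all genes changed. The knockdown had 4 of 15 and 1 of 15, where 3.77% of all genes changed. In 2102EP-C1 under GSK-J4 there were 0 of 16 and 0 of 15, where 0.857% changed. In NT2/D1-A4 cells PLAGL1 rose by 0.95 log2 with cisplatin alone and was at 3.36 ± 0.03 log2 CPM with the combination beside 3.07 ± 0.14 with GSK-J4 (SD, n = 3), an interaction of -0.67 log2 (adjusted p = 0.0270). This PLAGL1 call was lost in 8 of the omissions of 1 library, with a highest adjusted p of 0.129.

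The other 5 were in the knockdown experiment. PWAR6 and PWAR5, transcripts of the Prader-Willi region downstream of SNRPN, rose by 0.54 and 0.60 log2 with cisplatin in pLKO.1 cells, and their interactions were -0.78 log2 (adjusted p = 3.98e-10) and -0.69 log2 (adjusted p = 5.5e-09). KCNQ1OT1 had an interaction of -0.70 log2 (adjusted p = 2.58e-06). IGF2R, a receptor that clears IGF2 and whose imprinting varies between people, was at 7.54 ± 0.0049 log2 CPM in pLKO.1 cells, 7.75 ± 0.01 with cisplatin, 7.51 ± 0.02 with sh6A+6B, and 7.23 ± 0.03 with both (SD, n = 3), an interaction of -0.49 log2 (adjusted p = 1.13e-12). PEG13 was close to the thresholds, at -0.39 log2 (adjusted p = 0.0463), and its call was lost with the replicate block and in 9 omissions of 1 library.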

How the results depend on the processing

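The counts of changed members were recomputed under 6 other settings and with each library left out. With the filter of log2 CPM over 1 in every library, which removes NNAT and, in NT2/D1-A4 cells, DLK1, the combination in NT2/D1-A4 cells changed 3 members in place of 5; every other setting kept its count within 1.5 times. With a library left out the counts ranged, in NT2/D1-A4 cells, from 3 to 4 for GSK-J4 without and with cisplatin and from 4 to 5 for the combination. In 2102EP-C1 cells they ranged from 1 to 3 for GSK-J4 without cisplatin, from 1 to 3 with it, from 0 to 1 for cisplatin after GSK-J4, and from 2 to 4 for the combination. In the knockdown they stayed at 2 without cisplatin and ranged from 1 to 2 with cisplatin in both arms and for the combination. The level differences between the lines moved by less than the replicate spread with library size scaling and without a prior count. Of 242 single-gene results none that was counted as changed turned its sign; 76 of 4298 recomputed values had another sign, each in a result not counted as changed.

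The titles number the libraries of each arm, and whether these numbers pair the arms was checked from the deviations from the arm means. Same-numbered libraries had correlations of -0.09 to 0.08 in NT2/D1-A4, -0.06 to 0.04 in 2102EP-C1 under GSK-J4, and -0.04 to 0.12 in the knockdown. Libraries with other numbers had -0.08 to 0.12, -0.06 to 0.05, and -0.12 to 0.06. In the knockdown the same-numbered sh6A+6B libraries without and with cisplatin had 0.12, 0.10, and 0.05, of which the first and the next exceed every pair with other numbers there, and the remaining same-numbered pairs had 0.07 or less. Not every pair exceeded 0.1 in any experiment, so the numbers were not taken as pairs. With the replicate block the counts of changed members were the same in all 18 comparisons (3 and 3 for GSK-J4 without and with cisplatin in NT2/D1-A4, 3 and 2 in 2102EP-C1 cells, 2 and 2 for the knockdown), and the counts over all genes went from 3332 to 3332, from 1858 to 1842, and from 1989 to 2000 without cisplatin. The block ended no call of a member.

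Over all genes, the stricter filter, which tests fewer genes, gave 1917, 957, and 907 changed genes for GSK-J4 or knockdown without cisplatin and 1894, 1962, and 1307 with it. Fitting only the libraries compared took cisplatin after GSK-J4 in NT2/D1-A4 cells from 62 to 18 genes. Leaving out 1 library also moved some counts over all genes by more than 1.5 times. Cisplatin after GSK-J4 in NT2/D1-A4 went from 62 to 22 or 39 without GSK-J4 replicate 1 or 3, and to 107, 20, or 98 without combination replicate 1, 2, or 3. In 2102EP-C1 it went from 379 to 242 or 725 without GSK-J4 replicate 2 or 3, and to 164 without combination replicate 1. Cisplatin alone in 2102EP-C1 went from 182 to 118 without untreated replicate 1 and to 117 without cisplatin replicate 2. The interaction ranged from 1 to 11 genes around 7 in NT2/D1-A4, beyond 1.5 times for every library except GSK-J4 replicate 1 and combination replicate 3, and from 59 to 447 around 146 in 2102EP-C1, for every library except untreated replicate 3 and combination replicate 2. The shares of all genes printed for these comparisons move with them. The cause was not tested.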
